A study of Mus musculus with 24 samples.

Results

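This account describes the blood-cell founders that contributed mostly to monocytes and neutrophils yet were read in every sorted population, and asks at what level they appeared in 4 subsets of tissue macrophages. A founder is recognised by its barcode, a synthetic stretch of 52 bases that a lentivirus had placed in the genome of a cultured haematopoietic stem cell and that its progeny inherited. Barcodes were chosen within each mouse by their share of a sample's reads. A member had at least 0.01% in all 8 populations and at least 0.1% in 1 of them, and the mean of its monocyte and neutrophil shares was at least 4 times the mean of its B and T cell shares. These rules gave 43 members, 19 in mouse 1, 11 in mouse 2 and 13 in mouse 3, out of 157 barcodes found in all 8 populations and 327974 distinct sequences in all files. The 43 entries were 38 different sequences, because 3 sequences met the rule in more than 1 mouse.

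The 24 samples were genomic DNA of 8 populations from each of 3 recipients, so every population had 3 samples, and the same number in the titles was taken as the same mouse. Donors of the marrow stem cells were C57BL/6 mice; the cells received the barcode virus pBC008 on day 5 of culture and were sorted 4 days after infection as GFP+ cells with Sca1 and cKit. Recipients were CD45.2 males of 5 weeks that had received 9 Gy over the whole body, and CD45.2+ rescue cells without a barcode were injected together with the barcoded cells. Blood, hearts and kidneys were taken 2 months later. All groups shared this treatment, and no untreated or unbarcoded group was analysed here. The blood populations were monocytes, neutrophils, B cells and T cells, the heart gave macrophages with high or low Ccr2, and the kidney gave macrophages named M1 and M2. The barcodes carry no expression of marker genes, so the identity of the sorted cells could not be checked.

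Monocytes and neutrophils are short-lived myeloid cells that bone marrow replaces continually, whereas B and T lymphocytes live longer and T cells mature in the thymus. A stem or progenitor cell can contribute to these lineages unequally, which barcodes show as a different share of the same sequence in each lineage. Macrophages of heart and kidney descend in part from cells seeded before birth and in part from circulating monocytes, and Ccr2 is the chemokine receptor by which monocytes leave the marrow. After irradiation, donor cells can replace part of the resident macrophages. Cells of the host and of the rescue graft carry no barcode and are invisible here.

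The barcodes on which the results turn are shown first, in lower case and from 5′ to 3′, named by mouse and by the order of their mean share in monocytes and neutrophils. The library alternates G or C with A or T, and capitals mark bases that leave this pattern. The leading members of each mouse came first in both myeloid populations or close to it.
1-A: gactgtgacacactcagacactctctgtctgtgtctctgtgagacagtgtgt
1-B: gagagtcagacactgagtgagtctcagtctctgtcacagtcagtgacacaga
2-A: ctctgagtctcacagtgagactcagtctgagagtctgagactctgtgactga
2-B: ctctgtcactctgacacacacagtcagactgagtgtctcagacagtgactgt
3-A: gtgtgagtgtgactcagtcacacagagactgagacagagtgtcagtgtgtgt
3-B: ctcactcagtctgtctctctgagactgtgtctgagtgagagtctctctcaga
3-C: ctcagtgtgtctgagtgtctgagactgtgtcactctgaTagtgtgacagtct

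A second set is shown because its members moved through the populations together. The pair 1-C and 1-E had nearly the same level in each sample of mouse 1, as had 3-J and 3-K in mouse 3, and 3-D followed 3-K at a higher level.
1-C: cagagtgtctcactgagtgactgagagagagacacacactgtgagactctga
1-E: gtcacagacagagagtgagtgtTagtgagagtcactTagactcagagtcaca
3-D: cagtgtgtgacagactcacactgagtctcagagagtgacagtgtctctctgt
3-J: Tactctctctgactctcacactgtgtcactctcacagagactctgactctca
3-K: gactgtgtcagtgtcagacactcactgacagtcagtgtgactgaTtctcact

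The next set holds the 3 sequences that recurred between mice, and the members with the highest M2 to M1 ratio in mice 1 and 3, 1-P and 3-H.
shared-a: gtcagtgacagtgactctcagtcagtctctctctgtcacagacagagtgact
shared-b: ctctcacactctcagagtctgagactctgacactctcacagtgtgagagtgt
shared-c: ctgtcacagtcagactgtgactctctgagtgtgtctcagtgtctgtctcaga
1-P: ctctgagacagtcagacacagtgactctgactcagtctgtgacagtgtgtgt
3-H: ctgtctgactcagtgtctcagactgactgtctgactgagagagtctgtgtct

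Of the 38 sequences, 34 followed the alternating pattern throughout, with 50% G and C, and 4 (10.5%) left it at 1 or 2 positions, namely 1-E, 3-C, 3-J and 3-K. Among all 151 sequences found in all 8 populations of a mouse the share was 10.6%. Any 2 member sequences differed at 14 or more of the 52 positions, so that no member was a single-base variant of another.

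Samples held 6808221 to 15745444 reads, and 0.01% corresponded to 681 to 1575 reads. The lowest member level was that of 1-P in B cells, 0.0101% or 1101 reads, with a Wilson 95% interval of 0.00956% to 0.0108%. The highest was 20.6% of M1 reads for 3-A (Wilson 95% interval 20.5733% to 20.6178%), and no interval was wider than 12.2% of its value. PCR reads without molecular identifiers are not independent molecules, so these intervals cover counting error only. Of the 43 entries, 35 were members in a single mouse only, so the ratio of such a barcode between 2 populations has no replicate, and ratios of single barcodes are given without a test. Summaries over members are given per mouse, with SD over 3 mice. The members had been chosen from these shares, and an exact two-sided sign-flip permutation test over 3 mice cannot go below p = 0.25, so differences over mice were not tested.

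The tissue populations removed no barcode from the set. When presence at 0.01% was asked of the 4 blood populations alone, 43 barcodes met the rule, and all 43 were also at 0.01% or more in each of the 4 macrophage subsets. This was the case for 73.4% of all 214 barcodes found in the 4 blood populations, for 53 of 61 lineage-balanced ones (ratio between 0.25 and 4) and for 61 of 110 lymphoid-rich ones (ratio of 0.25 or less). The missing subset was mostly renal M1 macrophages, in which 8 lineage-balanced and 45 lymphoid-rich barcodes lay under 0.01%, whereas under 0.01% of M2 reads there were 0 and 4. A further 54 barcodes reached 0.1% in a population and had the ratio of 4 but were under 0.01% in at least 1 population. T cells were under 0.01% in 53 of them, B cells in 33, neutrophils in 14 and monocytes in 7. For macrophages these were 12 in M1, 12 in Ccr2lo, 10 in Ccr2hi and 2 in M2, and a barcode could count in several populations. Only B or T cells were missing in 27, and at least 1 macrophage subset in 24. The thresholds cut a continuous range. Just inside the ratio lay 1-H with 4.12, and just outside lay shared-c in mouse 3 with 3.76. Just inside the 0.01% lay 1-P, and just outside was a barcode of mouse 1 with 0.00913% of T cell but 0.861% of monocyte reads. The member nearest to the 0.1% was again 1-P, which reached 0.140% in Ccr2hi macrophages, and no barcode met the other criteria with a highest share under 0.1%.

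Together the members took 46.7% ± 8.27 of monocyte and 49.0% ± 8.19 of neutrophil reads, and in lymphocytes 5.74% ± 3.23 among B and 2.13% ± 1.18 among T cells (SD, n = 3 mice each). These blood values follow from the choice of members. In tissue they took 50.2% ± 6.98 of M1, but 9.45% ± 1.26 of M2, 9.33% ± 4.03 of Ccr2hi and 6.90% ± 3.23 of Ccr2lo macrophage reads (SD, n = 3 mice each). Per mouse the combined M1 shares were 51.6%, 42.7% and 56.4%, and the M2 shares 10.9%, 8.60% and 8.85%. The M1 and M2 ranges did not overlap, and the combined share was 4.74, 4.96 and 6.37 times as high in M1. In the heart the Ccr2hi shares were 8.59%, 13.7% and 5.72%, and the Ccr2lo shares 6.50%, 10.3% and 3.89%. These ranges overlapped between mice, although within each mouse the Ccr2hi share was the higher, by 1.32, 1.33 and 1.47 times. M2 and cardiac macrophages had no common order, since M2 exceeded Ccr2hi macrophages by 1.27 times in mouse 1 and 1.55 times in mouse 3 but had 0.629 times their share in mouse 2.

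A share of reads depends on what else is in the sample. The barcodes found in all 8 populations held 91.4% to 94.1% of M1 but 29.8% to 41.7% of M2 reads, with the rest taken by barcodes under 0.01% in at least 1 population or never at 0.1%. Counted over the reads of the barcodes found in all 8 populations only, members held 54.1% ± 7.90 in M1, 28.8% ± 7.74 in M2, 26.0% ± 7.94 in Ccr2hi and 24.1% ± 6.94 in Ccr2lo macrophages (SD, n = 3 mice each). On this scale the M1 share was still above the other 3 subsets on average, and Ccr2hi stayed above Ccr2lo macrophages within each mouse, at 31.5% against 29.0%, 29.4% against 27.1% and 16.9% against 16.2%.

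Renal M1 macrophages carried the leading members at the level of circulating myeloid cells. In mouse 1, 1-A held 9.57% of monocyte, 10.7% of neutrophil, 0.702% of B cell, 1.45% of T cell, 10.5% of M1, 1.71% of M2, 1.01% of Ccr2hi and 0.594% of Ccr2lo reads. In mouse 2, 2-A held 11.6% of monocyte, 12.6% of neutrophil, 0.191% of B cell, 0.261% of T cell, 14.0% of M1, 2.58% of M2, 3.56% of Ccr2hi and 3.04% of Ccr2lo reads. In mouse 3, 3-A held 18.0% of monocyte, 14.7% of neutrophil, 3.26% of B cell, 0.195% of T cell, 20.6% of M1, 4.06% of M2, 1.87% of Ccr2hi and 1.24% of Ccr2lo reads. Each of the 3 was thus far higher in M1 than in the other macrophages, while 2-A differed from the others in being higher in both cardiac subsets than in M2. Across all members, 40 of 43 (93.0%) lay within 2-fold of their monocyte level in M1, against 60.5% of the 157 barcodes found in all 8 populations. The share was 81.1% in lineage-balanced and 19.7% in lymphoid-rich barcodes, so a high share was not particular to members. Over 2-fold higher in M1 were 0 members (background 0.637%), and over 2-fold higher in monocytes were 3 (background 38.9%). The ratio of M1 to monocytes ran from 0.196 to 1.39. The 3 exceptions were 1-P in mouse 1, at 0.0824% of monocyte and 0.0162% of M1 reads, and shared-b in mice 2 and 3, with ratios of 0.475 and 0.438. The median log2 ratio was 0.14, 0.05 and -0.42 in the 3 mice, with no common sign. Since monocyte levels had chosen the members, this is a description of the M1 side only.

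Members were lower in renal M2 than in renal M1 macrophages. By more than 2-fold, 40 of 43 (93.0%) were higher in M1 and 1 (2.33%) was higher in M2, against 43.9% and 43.3% of the 157 barcodes found in all 8 populations. Among all 1064 barcodes that reached 0.1% in at least 1 population, 9.77% were higher in M1 and 85.4% in M2. By more than 4-fold, 25 members were higher in M1 (background 23.6%). The median log2 ratio of M1 over M2 was 2.61, 1.94 and 2.39 in mice 1 to 3, which gave 2.32 ± 0.34 (SD, n = 3 mice), compared with 0.54 ± 0.74 over all barcodes found in all 8 populations, 1.24 ± 0.69 in lineage-balanced and -3.07 ± 1.16 in lymphoid-rich ones. Within each mouse the median of members exceeded that of the lineage-balanced barcodes, by 2.00, 0.81 and 0.41, and that of the lymphoid-rich barcodes, by 4.39, 5.96 and 5.81. Scaled to the reads of the barcodes found in all 8 populations, which shifts every barcode of a mouse by the same factor, 17 members were over 2-fold higher in M1 (background 12.7% on this scale) and 2 in M2 (background 51.6%), and the median was 0.84. By that common shift, 7 of the 40 came to lie on the M2 side of an equal level, namely 1-C, 1-E, shared-b and shared-c in mouse 1, shared-a in mouse 2, and shared-a and shared-b in mouse 3.

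Members spread over a wide range in this comparison. 1-L of mouse 1 had 1.09% of monocyte, 1.35% of M1 and 0.0975% of M2 reads, a 13.8-fold difference between the renal subsets. 3-C of mouse 3 had 9.93% of M1 and 0.792% of M2 reads, a 12.5-fold difference. In mouse 2 the difference was largest for 2-E, at 2.76% and 0.240% or 11.5-fold. At the other end, 3-H had 1.22% of M1 and 0.757% of M2 reads, a difference of 1.61-fold, and 1-O, picked out after its values were seen, had 0.222% and 0.197%. In mouse 2 the smallest difference was that of shared-a, at 2.19-fold. Reversed in direction was 1-P, with 0.0162% of M1 but 0.0847% of M2, 0.140% of Ccr2hi and 0.0594% of Ccr2lo reads, so that M2 was 5.24-fold the M1 level. 1-P was also the member with the lowest myeloid mean, 0.0645%.

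In mouse 1 the members that led in blood were not those that led in M2 and cardiac macrophages. 1-C held 4.98% of monocyte, 5.27% of neutrophil, 0.534% of B cell, 0.582% of T cell, 6.04% of M1, 2.52% of M2, 2.18% of Ccr2hi and 1.74% of Ccr2lo reads. 1-E held 4.76%, 4.95%, 0.452%, 0.518%, 5.92%, 2.38%, 2.12% and 1.78% of the same populations. In monocytes they ranked 6 and 7 among all barcodes of mouse 1, but in M2 they ranked 1 and 2, in Ccr2hi 1 and 2 and in Ccr2lo 2 and 1. 1-A, which ranked 1 in monocytes, ranked 6 in M2 and 11 in Ccr2lo macrophages. In mouse 3, 3-A ranked 1 in monocytes, M1 and M2 but 9 in Ccr2hi and 12 in Ccr2lo macrophages, and 3-B ranked 2 in monocytes and M1, 7 in M2, 22 in Ccr2hi and 52 in Ccr2lo macrophages. In mouse 2 the order was kept more closely, with 2-A at rank 1, 2, 3 and 2 and 2-B at rank 2, 3, 2 and 3 in M1, M2, Ccr2hi and Ccr2lo macrophages.

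In the heart, members lay below their monocyte level by an amount that differed between mice. The median log2 ratio of Ccr2hi macrophages over monocytes was -3.24, -1.45 and -2.98 in mice 1 to 3, and that of Ccr2lo macrophages over monocytes -3.73, -1.80 and -3.34. Single members had log2 ratios from -5.82 to 0.76 in Ccr2hi and from -6.14 to 1.47 in Ccr2lo macrophages. By more than 2-fold, 33 members were lower in Ccr2hi than in monocytes and 0 higher, against a background of 40.1% and 31.2%, and 34 were lower in Ccr2lo and 1 higher, against 47.1% and 29.9%. In renal M2 macrophages 40 were lower than in monocytes and 0 higher, against 45.9% and 24.2%, with medians of -2.49, -2.18 and -2.69 and single log2 ratios from -3.56 to 0.04. In mouse 2 without the recurring sequences, the range was -2.91 to -1.14 in Ccr2hi, -2.79 to -1.76 in Ccr2lo and -3.40 to -1.57 in M2 macrophages. The cardiac subsets were thus no more spread than renal M2 there, while renal M1 ran from -0.92 to 0.27. The monocyte side of these ratios chose the members. 1-N had 0.914% of monocyte and 1.16% of M1 reads but 0.0162% of Ccr2hi and 0.0129% of Ccr2lo reads, 70.8-fold under monocytes in the latter. 1-O had 0.442% of monocyte, 0.222% of M1, 0.197% of M2, 0.336% of Ccr2hi and 0.324% of Ccr2lo reads. Its levels in the macrophage subsets thus lay within 2-fold of each other, while monocytes were 2.24-fold above M2. 1-N and 1-O are both from mouse 1 and were picked out after their values were seen.

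Ccr2hi and Ccr2lo macrophages held the members at similar levels, as they held most barcodes found in all 8 populations. Within 2-fold of each other lay 35 of 43 members (81.4%), against 89.2% of all barcodes found in all 8 populations. Over 2-fold higher in Ccr2hi were 6 (14.0%) and in Ccr2lo 2 (4.65%), against 8.28% and 2.55% of those barcodes. By more than 4-fold, 0 members were higher in Ccr2hi (background 0%). By any amount 35 of 43 members were higher in Ccr2hi, against 116 of the 157 barcodes found in all 8 populations. The median log2 ratio was 0.33, 0.23 and 0.40 in the 3 mice, 0.32 ± 0.08 (SD, n = 3 mice), next to 0.30 ± 0.14 for all barcodes found in all 8 populations. Scaled to the reads of the barcodes found in all 8 populations, a shift common to all barcodes of a mouse, the median was -0.038 and 1 member was over 2-fold higher in Ccr2hi (background 2.55%), although the combined share kept its direction. The largest ratio was that of 3-E, with 0.213% of Ccr2hi and 0.0613% of Ccr2lo reads or 3.47-fold, followed among the named members by 1-K with 2.38-fold. In mouse 2 the highest was 2-G with 1.72-fold. The lowest in each mouse were 1-M with 0.841, shared-c with 0.336 in mouse 2 and shared-a with 0.918 in mouse 3.

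Renal M2 macrophages were compared with cardiac macrophages in each mouse. Over 2-fold higher in M2 than in Ccr2lo were 16 members (37.2%) and over 2-fold lower 8 (18.6%), against 16.6% and 14% of the barcodes found in all 8 populations. The mice differed. Of 19 members in mouse 1, 10 were over 2-fold higher in M2 and 2 lower, of 13 in mouse 3 these were 6 and 2, and of 11 in mouse 2 these were 0 and 4. The barcodes found in all 8 populations gave 15 higher and 10 lower of 67 in mouse 1. In mouse 3 they gave 9 and 7 of 40, and in mouse 2 they gave 2 and 5 of 50. The median log2 ratio of M2 over Ccr2lo was 1.12, -0.61 and 0.69. The difference between mice was not tested. Against Ccr2hi macrophages 8 members were over 2-fold higher in M2 (background 7.64%) and 9 lower (background 16.6%), and all 11 members of mouse 2 were lower in M2 by some amount. Of the 50 barcodes found in all 8 populations of mouse 2, 19 were higher in M2 than in Ccr2hi by any amount.

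The macrophage subsets were also ordered within each member. The order M1, M2, Ccr2hi, Ccr2lo from high to low was the most common, with 18 of 43 members, followed by M1, Ccr2hi, Ccr2lo, M2 with 10. M1 was the highest of the 4 in 34 members, of which 33 were among the 35 that belonged to a single mouse. The order was not counted over the other barcodes found in all 8 populations, so it describes the members and is not shown to be particular to them. Of the 53 lineage-balanced barcodes, 29 were also over 2-fold higher in M1 than in M2. Across the members of a mouse, the level in M1 followed that in monocytes closely, with Spearman rho of 0.99, 0.98 and 0.99 (n = 19, 11 and 13 members), and so did the level in M2, with 0.91, 0.96 and 0.95. For Ccr2hi macrophages rho with monocytes was 0.47, 0.95 and 0.68 and rho with T cells 0.89, 0.86 and 0.73. For Ccr2lo macrophages these were 0.56, 0.87 and 0.36 with monocytes and 0.87, 0.89 and 0.72 with T cells. Without the recurring sequences (n = 16, 8 and 11 members), rho of Ccr2hi macrophages was 0.65, 0.95 and 0.72 with monocytes and 0.87, 0.83 and 0.77 with T cells, which narrowed the contrast in mouse 1. For Ccr2lo macrophages these were 0.72, 0.98 and 0.48 with monocytes and 0.86, 0.79 and 0.81 with T cells. In mouse 2 the rho of Ccr2lo macrophages was then higher with monocytes than with T cells. These are descriptions over barcodes that share the same libraries, and the difference between the correlations was not tested.

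The rule used the means of the paired blood populations, not the balance within each pair. Monocyte and neutrophil levels of members lay within 2-fold of each other in 41 of 43 (95.3%, background 79.0%). The 2 others were over 2-fold higher in monocytes (4.65%, background 19.7%), with 0 higher in neutrophils (background 1.27%). Both were recurring sequences in mouse 1, shared-a with 0.360% and 0.0963% and shared-b with 0.205% and 0.0739% of monocyte and neutrophil reads. The median log2 ratio of monocytes over neutrophils was -0.08, -0.11 and -0.17. B and T cells differed far more. Over 2-fold higher in B cells were 20 members (46.5%, background 42%) and over 2-fold higher in T cells 3 (6.98%, background 34.4%).

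The largest excess in B cells was that of 1-H, with 0.909% in B cells and 0.0141% in T cells, 64.5-fold. 3-E followed with 0.760% and 0.0222% or 34.3-fold, and 1-G with 0.839% and 0.0257% or 32.6-fold. 1-B, a leading member of mouse 1, had 4.30% in B cells and 0.362% in T cells beside 8.96% of monocyte, 10.6% of neutrophil, 8.74% of M1, 1.27% of M2, 0.823% of Ccr2hi and 0.507% of Ccr2lo reads. These founders were thus read in B cells at many times their T cell level. The 3 higher in T cells were 1-A at 1.45% against 0.702%, 2-F at 0.156% against 0.0294%, and shared-b in mouse 1 at 0.0463% against 0.0179%. T cells were the lowest of the 4 blood populations in 28 of 43 members. These were the members higher in B than in T cells by any amount, which held for 83 of the 157 barcodes found in all 8 populations. Every macrophage subset lay above T cells in 41 members (background 35.7%) and above B cells in 26 (background 21.7%), which follows in part from a rule that asked for low B and T cell shares.

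Members also differed in how strongly they leaned to the myeloid side, from 4.12-fold to 128-fold with a median of 10.5-fold, which the rule fixed at 4 or more. The most uneven were 3-G in mouse 3 with 1.46% of monocyte, 2.09% of neutrophil, 0.0165% of B and 0.0112% of T lymphocyte reads, 1-J in mouse 1 with a ratio of 92.5, and 2-A in mouse 2 with 53.5. In macrophages 3-G had 1.04% of M1, 0.197% of M2, 0.0686% of Ccr2hi and 0.0568% of Ccr2lo reads. 1-J had 0.888% of M1, 0.186% of M2, 0.109% of Ccr2hi and 0.0846% of Ccr2lo reads. Both were named for this ratio, so their low lymphoid levels follow from the choice.

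The other leading members of mice 2 and 3 had M1 levels near those of monocytes but differed in the heart. 2-B held 10.6% of monocyte, 9.51% of neutrophil, 12.2% of M1, 2.06% of M2, 3.88% of Ccr2hi and 2.30% of Ccr2lo reads. 3-B held 13.8% of monocyte, 15.6% of neutrophil, 14.3% of M1, 1.30% of M2, 0.695% of Ccr2hi and 0.332% of Ccr2lo reads. 3-C held 8.74% of monocyte, 8.002% of neutrophil, 9.93% of M1, 0.340% of Ccr2hi and 0.214% of Ccr2lo reads. Monocytes were thus 4.60-fold above Ccr2lo macrophages for 2-B but 41.6-fold for 3-B and 40.8-fold for 3-C. The other leading members of mouse 2, 2-C, 2-D and 2-E, were at 3.39-fold, 3.44-fold and 6.92-fold. In mouse 1, 1-A, 1-B and 1-D were at 16.1-fold, 17.7-fold and 12.1-fold but 1-C and 1-E at 2.87-fold and 2.67-fold, and 3-D and 3-E of mouse 3 at 5.07-fold and 54.3-fold.

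Some members shared a profile over the 8 populations. Among the 304 pairs of members of the same mouse, the SD of the log2 ratio over the 8 populations had a median of 1.35 and was smallest for 1-C and 1-E, at 0.0863. Their ratio stayed between 0.973 and 1.18 in all 8 samples, although the sequences differed at 26 of 52 positions. For 3-J and 3-K it stayed between 0.907 and 1.35 (SD 0.169), and for 3-D and 3-K between 3.72 and 4.80 (SD 0.154). These pairs were picked out after their values were seen.

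The 3 recurring sequences formed a group of their own with 8 of the 43 entries. shared-a and shared-b were members in all 3 mice, and shared-c in mice 1 and 2. Some of their levels differed over 2-fold between mice. shared-a had 0.360%, 0.191% and 0.223% of monocyte, 0.229%, 0.126% and 0.225% of Ccr2hi, 0.102%, 0.292% and 0.245% of Ccr2lo, 0.260%, 0.204% and 0.138% of M1 and 0.0680%, 0.0934% and 0.0494% of M2 reads in mice 1, 2 and 3. Its Ccr2hi to Ccr2lo ratio was thus 2.23 in mouse 1 and 0.430 in mouse 2. shared-b had 0.0240% to 0.0518% of M2 reads, against 0.117% to 0.180% of Ccr2hi and 0.138% to 0.171% of Ccr2lo reads. shared-c was highest in Ccr2lo macrophages of mice 2 and 3, with 0.285% and 0.334%, and had 0.0229% to 0.0490% of M2 reads. Relative to monocytes, the recurring sequences were low in M2 like the other members, but they differed in the heart. In M2 8 of 8 were over 2-fold lower than in monocytes, against 32 of the 35 members of a single mouse (background 45.9% of the barcodes found in all 8 populations). In Ccr2hi macrophages all 8 entries lay within 2-fold of monocytes, against 2 of 35 (background 28.7%). In Ccr2lo macrophages 6 of 8 did, again against 2 of 35 (background 22.9%), shared-c in mouse 2 being higher and shared-a in mouse 1 lower. In M2 7 of 8 were over 2-fold lower than in Ccr2lo, against 1 of 35 (background 14%). The 8 entries are 3 sequences counted once per mouse, so they are not 8 separate barcodes. These differences between the sets were not tested. With the recurring sequences left out, 32 of 35 members were over 2-fold higher in M1 than in M2, 5 over 2-fold higher in Ccr2hi than in Ccr2lo, and 16 higher and 1 lower in M2 than in Ccr2lo. The combined shares moved little, to 49.8% ± 7.04 in M1, 9.32% ± 1.23 in M2, 8.87% ± 4.09 in Ccr2hi and 6.38% ± 3.06 in Ccr2lo macrophages (SD, n = 3 mice each), since the recurring sequences together held 0.131% to 0.522% on average in these subsets. Whether they mark founders, a sequence present in several founders or carry-over between samples was not tested.

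Reads of the other 35 members were also seen in mice to which they did not belong. The median level of a member in the 16 samples of the other mice was 0.0457% to 0.163% of its highest level in its own mouse. Its highest level elsewhere reached 0.01% or more for 13 of the 35. The lowest level of a member in its own mouse was above its highest level in the other mice in 34 of 35, by a median of 13.9 times. The rule asked for 0.01% or more in every population of a member's own mouse. For members under 0.01% in the other mice, this order therefore followed from the rule. Only the 13 that reached 0.01% elsewhere could have departed from it. The narrowest margins above 1 were 1.41 times for 1-L and 1.60 times for 3-J. How much of the low B and T cell levels came from reads of other samples of the same mouse was not tested. The exception was 3-H, which had up to 0.136% in mouse 2. There it held 0.136% of monocyte, 0.136% of neutrophil, 0.00809% of B cell, 0.00373% of T cell, 0.0272% of M1, 0.133% of M2, 0.0479% of Ccr2hi and 0.0412% of Ccr2lo reads. In its own mouse 3 the same populations had 1.63%, 1.90%, 0.0521%, 0.0225%, 1.22%, 0.757%, 0.619% and 0.471%. In mouse 1 it stayed at 0.00245% or less. 3-H therefore had the myeloid lean in both mice, but M2 lay above M1 in mouse 2 and below it in mouse 3. It was picked out after these values were seen.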

How the data were processed

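Barcodes integrated in genomic DNA had been amplified in 18 PCR cycles and 9 to 11 further cycles for indexes, per the labels' protocols. Each deposited file gives a whole-number count of reads per distinct sequence for a single sample, per the file headers, without normalisation. Trimming, filtering and counting are not given in the sources used here.

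The titles gave each sample's population and mouse. Counts were divided by the sample total to give shares in percent. Members were found in each mouse, and ratios of shares were taken within a mouse (Python 3.11.15, numpy 2.4.6, pandas 2.3.3, scipy 1.17.1). A fold of 2 served as the threshold for calling a difference, and medians of log2 ratios were taken per mouse. The steps were tested on simulated data. Intervals are Wilson 95% intervals. Members and lists were chosen with earlier results of these data known.

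Barcodes named are, per mouse, the 5 members with the highest myeloid mean, the members at either end of the M2 to M1 and Ccr2hi to Ccr2lo ratios and with the highest myeloid to lymphoid ratio, and the barcodes next to each threshold. Others were named after their values were seen. Alternatives were thinning, merging of barcodes 1 mismatch from one at least 10 times as abundant, presence at 0.005% or 0.02%, ratios of 2 or 8, the alternating pattern only, removal of sequences under 10 reads, scaling to barcodes found in all 8 populations, a fold of 4, and leaving out each mouse. Leaving out recurring sequences and asking presence of blood only were added after seeing the data.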

Additional observations from a re-analysis of the deposited data

How the results depend on the processing

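No paired analysis was possible because no result comes from a test; every ratio was already taken within a mouse, and tests over 3 mice were not run. With thinning, merging, removal of sequences under 10 reads, the alternating pattern only, presence at 0.005% and presence in blood only, the number of members, the combined shares and the counts and medians for M1 over M2 and Ccr2hi over Ccr2lo moved by less than the SD over mice or by less than 1.5 times. The exception is 1-P, the member over 2-fold higher in M2 than in M1, which was no longer a member after thinning, with presence at 0.02% or with a ratio of 8, so that 0 remained. The medians of M1 over monocytes and M2 over Ccr2lo moved by less than the SD over mice under every alternative tried. Those SDs, 0.298 and 0.896, were larger than the medians of -0.077 and 0.399, so neither size nor sign was shown to be stable. With the recurring sequences left out, the 2 medians were 0.035 and 0.864. Presence at 0.02% moved the median log2 ratio of Ccr2hi over Ccr2lo to 0.42. With a ratio of 2 the combined share was 63.1% in monocytes, 65.9% in neutrophils, 12.2% in B cells, 6.15% in T cells, 66.9% in M1 and 13.6% in M2 macrophages, and that median was 0.44. With a ratio of 8 there were 27 members, of which 26 were over 2-fold higher in M1 than in M2 and 3 in Ccr2hi than in Ccr2lo, with 40.8% of neutrophil, 42.6% of M1 and 7.95% of M2 reads. Scaled to the barcodes found in all 8 populations, members held 9.66% of B cell, 26.0% of Ccr2hi, 24.1% of Ccr2lo and 28.8% of M2 reads, 17 were over 2-fold higher in M1 than in M2 (median log2 ratio 0.84) and 1 in Ccr2hi than in Ccr2lo (median -0.038). On that scale the log2 ratio of M1 over M2 turned to -0.33 for 1-C, -0.28 for 1-E, -0.24 and -0.12 for shared-b and shared-c in mouse 1, -0.048 for shared-a in mouse 2, and -0.16 and -0.15 for shared-a and shared-b in mouse 3. With a fold of 4, 25 members were higher in M1 than in M2 and 0 in Ccr2hi than in Ccr2lo. Leaving out 1 mouse gave 24 to 32 members, 23 to 29 higher in M1 than in M2 and 3 to 6 higher in Ccr2hi than in Ccr2lo, as fewer samples were counted; the 3 came without mouse 1 and without mouse 3. Without the recurring sequences the median of Ccr2hi over Ccr2lo was 0.40. Depth limits single levels by counting error only, while the number of sorted cells, which could limit rare founders more, is not stated in the labels.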
